A study of Mus musculus with 7 samples.

Results

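The INK4 and KIP genes encode the inhibitors of the cyclin-dependent kinases (CDKs) that control the passage of a cell from G1 into S phase. The 6 genes described here are Cdkn1b and Cdkn1c of the KIP family and Cdkn2a, Cdkn2b, Cdkn2c and Cdkn2d of the INK4 family, taken by gene symbol from the 34592 genes of the count table. All 6 were among the 17389 genes that passed the filter on low counts. They were measured by RNA sequencing of 7 mouse Group 3 (G3) medulloblastomas (MBs), of which 4 were labelled as overexpressing human WDR11 (WDR11OE) and 3 were controls.

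INK4 proteins bind CDK4 and CDK6 and keep them from pairing with D-type cyclins, whereas KIP proteins bind complexes of cyclins with CDK2 and other kinases. When CDK4, CDK6 and CDK2 are active, they phosphorylate the retinoblastoma protein RB and its relatives, which then release the E2F factors that switch on genes of DNA replication. In the developing cerebellum, Cdkn1b and Cdkn2c are known for restraining the division of granule neuron progenitors, and loss of Cdkn2c together with Trp53 is used to build mouse models of MB.

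All 7 tumors came from tumorsphere line # 19568, so the model rests on a single line. By the study's methods, mouse G3 MBs were made from granule neuron progenitors of P7 Trp53-/-; Cdkn2c-/- mice that were given a retrovirus encoding Myc and GFP. Both groups therefore share the lost Cdkn2c and Trp53 alleles and the added retrovirus, but not the level of Myc RNA, which is given below. The tumorspheres were infected with a lentivirus that carried either an empty vector or human WDR11 behind the EF1 promoter, both with copGFP, and were grown as grafts in the cortex of CD1 nu/nu mice. The labels of the controls list no treatment, while the treatment protocol and the methods give them the empty vector. By the study's text the infected cells were not sorted before the transplant. Tumor chunks were taken when the mice were moribund, so that they can hold cells of the host, which is not listed as lacking Cdkn2c or Trp53. The replicate numbers used below only name the tumors.

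The human WDR11 row of the table did not separate the groups. It held 73, 92 and 102 counts in the controls and 185, 169, 99 and 57 counts in WDR11OE replicates 1 to 4, or 2.03, 2.19 and 3.13 against 4.38, 2.11, 3.05 and 0.624 CPM, the count scaled to a common library size. Replicate 1 was above every control and replicate 4 was below every control, and the difference was 0.05 on the log2 scale (SE 0.58, Benjamini-Hochberg adjusted p = 0.961 in the quasi-likelihood test of edgeR). The endogenous mouse Wdr11 was at 58.4 to 59.3 CPM in the controls and at 61.0 to 68.9 CPM in the WDR11OE tumors (adjusted p = 0.0910). The group names below are therefore those of the labels, and each direction is that of the tumors labelled WDR11OE. Each group's libraries carry their own series of numbers, so that library series and condition cannot be told apart. Myc was at 812.2 to 1109 CPM in the controls and at 278.1 to 431.4 CPM in the WDR11OE tumors. Its log2 fold change was -1.40 (SE 0.20, adjusted p = 0.0023 in edgeR's test). The part of the Myc level in the levels of the inhibitors was not tested.

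Total counts ranged from 32116095 to 87141305 per tumor, and the 6 genes together took 6626 to 22098 of them. WDR11OE replicate 4 had the highest sums of brain cell markers, with 684 CPM over 8 neuron markers and 696 CPM over 5 astrocyte markers. The sums were 12.5 to 209 CPM and 159 to 375 CPM in the other WDR11OE tumors. They were 69.0 to 441 CPM and 376 to 573 CPM in the controls. WDR11OE replicates 1 and 2 lay below every control in both sums. All 5 skeletal muscle markers were higher in the WDR11OE tumors, with sums of 31.6 to 97.1 CPM against 1.04 to 1.75 CPM, and Mb had no counts in the controls. None of the neuron, astrocyte, oligodendrocyte, microglia or red blood cell markers passed the test, while Cdh5 of the 5 endothelial markers and Pdgfrb of the 5 fibroblast and pericyte markers were lower. Of 8 genes of the granule neuron lineage, 5 passed the filter, and Atoh1 had no count in any tumor.

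Of the 6 inhibitors, 1 was lower in the WDR11OE tumors at an adjusted p under 0.05, none was higher, and 5 did not pass the test. Over all 17389 genes, 15.8% were lower and 18.1% were higher by the same rule, and the median log2 fold change of all genes was 0.08 beside -0.08 for the 6 inhibitors. The gene that passed was Cdkn2b, which had 65.4% of its control level.

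The locus of Cdkn2a and Cdkn2b matters for reading their counts, because Cdkn2a encodes 2 proteins that a count per gene adds together. Its transcripts for p16Ink4a, an inhibitor of CDK4 and CDK6, and for p19Arf, which binds Mdm2 and so stabilises p53, start at different first exons and then share 317 coding bases of exon 2 (chr4:88922573-88922889) in different reading frames. Both first exons lie on the minus strand of chromosome 4 in build NCBIM37. The coding part of each is given here from the reference genome, 5′ to 3′, with the start codon in capitals, since a read that falls in one of them would tell the transcripts apart whereas the deposited count does not.
p16Ink4a first coding exon, chr4:88927890-88928015: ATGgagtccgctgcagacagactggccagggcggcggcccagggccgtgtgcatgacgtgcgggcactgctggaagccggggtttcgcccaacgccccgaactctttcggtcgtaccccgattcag
p19Arf first coding exon, chr4:88940238-88940427: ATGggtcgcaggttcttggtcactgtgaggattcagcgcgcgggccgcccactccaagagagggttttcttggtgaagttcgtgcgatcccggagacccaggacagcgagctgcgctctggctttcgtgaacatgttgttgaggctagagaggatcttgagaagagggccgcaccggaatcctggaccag

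Cdkn2b is separated from Cdkn2a by 11640 bases, lies on the same strand and, of the INK4 genes, shares the longest run of coding bases with it. That run is shown as the longest exact match between their coding exons, and reads that align with mismatches were not examined.
Shared by Cdkn2a (chr4:88922759-88922781) and Cdkn2b (chr4:88953093-88953115): cgggaaggcttcctggacacgct
This run has 23 bases, and none of the 1344 windows of 50 bases in Cdkn2b and none of the 1118 in Cdkn2a occurred in a protein-coding transcript of another gene. The same held for Cdkn1b, Cdkn1c and Cdkn2c. Cdkn2d was the exception, with 95.9% of its windows also found in Gm4694, a gene annotated elsewhere on chromosome 9 (chr9:123836860-123839608) whose transcript differs from that of Cdkn2d by 1 base in 1271. No annotated gene overlapped any of the 6 inhibitors.

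Cdkn2b (ENSMUSG00000073802, chr4:88952198-88956941) encodes p15Ink4b, an inhibitor of CDK4 and CDK6 that is known as a target of TGF-β signaling. It was at 5.47, 6.72 and 5.24 CPM in control replicates 1 to 3 and at 4.03, 4.08, 3.27 and 3.82 CPM in WDR11OE replicates 1 to 4. Every WDR11OE tumor was below every control, as was the case for 19.1% of all genes tested. The means were 5.81 ± 0.797 CPM (SD, n = 3) and 3.80 ± 0.372 CPM (SD, n = 4), and the log2 fold change was -0.61 (SE 0.17, 95% confidence interval -1.01 to -0.21, adjusted p = 0.0292 in edgeR's test with Benjamini-Hochberg adjustment). The exact permutation test over the 35 splits of the tumors gave a two-sided p = 0.0286, the smallest that it can give. These p-values measure the spread between tumors of a single line, and fewer cells that use a gene cannot be told apart from less RNA per cell in bulk tumor.

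The call of Cdkn2b rested on a gene of 106 to 349 counts per tumor and did not hold in every setting. The titles of WDR11OE replicates 1 and 2 share a number. With these 2 summed, the call was lost (log2 fold change -0.69, adjusted p = 0.0651 in edgeR's test). By the same test it was also lost without control replicate 2 (log2 fold change -0.50, adjusted p = 0.101), WDR11OE replicate 1 (-0.68, adjusted p = 0.0693), replicate 2 (-0.70, adjusted p = 0.0612) or replicate 3 (-0.55, adjusted p = 0.0737). It passed in edgeR's test without control replicate 1 (-0.66, adjusted p = 0.0493), control replicate 3 (-0.68, adjusted p = 0.0434) or WDR11OE replicate 4 (-0.62, adjusted p = 0.0476). Across 14919 protein-coding genes, fold changes were lower where exons had more GC (Spearman rho -0.353 over genes, which are not independent replicates). Cdkn2b has 55.8% GC against a median of 50.02%, and with the trend removed its fold change was -0.44 (SE 0.22, adjusted p = 0.218).

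Cdkn2a (ENSMUSG00000044303, chr4:88920377-88940557) was abundant in every tumor. It was at 59.9, 62.1 and 78.2 CPM in the controls and at 71.1, 74.1, 55.2 and 46.0 CPM in WDR11OE replicates 1 to 4. The groups overlapped, with replicates 1 and 2 inside the control range and replicates 3 and 4 below it. The log2 fold change was -0.12 (SE 0.18, 95% confidence interval -0.55 to 0.32, adjusted p = 0.674 in edgeR's test), and it turned to 0.21 (SE 0.28, adjusted p = 0.665) with the GC trend removed. The permutation p was 0.600 in the exact test.

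Cdkn2c (ENSMUSG00000028551, chr4:109333481-109339794) encodes p18Ink4c and is the inhibitor that the model lacks. It nevertheless had 557 to 2145 counts per tumor. The exons removed by the deletion are not given in the sources used here, so the deletion could not be checked with a count per gene. Its level was 15.5, 15.8 and 17.4 CPM in the controls and 25.6, 26.8, 19.1 and 15.2 CPM in WDR11OE replicates 1 to 4. Replicates 1 to 3 lay above every control and replicate 4 lay below every control. Over all tumors the log2 fold change was 0.42 (SE 0.20, 95% confidence interval -0.06 to 0.90, adjusted p = 0.162), and without replicate 4 it was 0.56 (SE 0.14, adjusted p = 0.0242), both in edgeR's test. Of the 7 fits that each left out 1 tumor, only this 1 passed, and the adjusted p reached 0.450 without WDR11OE replicate 2. With the GC trend removed the fold change was 0.66 (SE 0.29, adjusted p = 0.17 in edgeR's test). The exact permutation p over all 7 tumors was 0.229.

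The second gene deleted in the model, Trp53, was likewise counted in all tumors. It was at 53.9, 45.0 and 46.3 CPM in the controls and at 27.8 to 35.6 CPM in the WDR11OE tumors, with no overlap (log2 fold change -0.56, SE 0.11, adjusted p = 0.00763 in edgeR's test).

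Cdkn2d (ENSMUSG00000066860, chr9:21092907-21095653) encodes p19Ink4d, an inhibitor of CDK4 and CDK6 found in maturing neurons. It was at 5.39, 3.86 and 6.10 CPM in the controls and at 5.54, 5.43, 5.02 and 6.13 CPM in the WDR11OE tumors. Control replicate 2 was the lowest tumor and the other 6 lay close together, so the groups overlapped. The log2 fold change was 0.11 (SE 0.20, 95% confidence interval -0.35 to 0.57, adjusted p = 0.699 in edgeR's test). Because of its near-identical copy, its level is uncertain. With the counts of Gm4694 added, the sum was 8.45, 5.99 and 9.04 CPM in the controls and 9.24, 8.82, 9.12 and 9.57 CPM in the WDR11OE tumors, and the log2 fold change was 0.23 (SE 0.17, adjusted p = 0.340 in edgeR's test), a setting chosen after seeing the data.

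Of the KIP genes, Cdkn1c (ENSMUSG00000037664, chr7:150644255-150646955) encodes p57Kip2, which is expressed from the maternal allele of an imprinted cluster and is known for cell cycle exit during development. It was at 150.5, 124.3 and 152.0 CPM in the controls and at 127.5, 114.1, 75.0 and 30.2 CPM in WDR11OE replicates 1 to 4. Replicate 1 lay inside the control range, and replicates 2, 3 and 4 lay below it. The WDR11OE tumors spanned a 4.22-fold range and the controls a 1.22-fold range.

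The group means of Cdkn1c were 142.2 ± 15.6 CPM (SD, n = 3) and 86.7 ± 43.8 CPM (SD, n = 4), and the log2 fold change of -0.71 did not pass the test (SE 0.43, 95% confidence interval -1.72 to 0.29, adjusted p = 0.246 in edgeR's test). The exact permutation p was 0.143. Without replicate 4 the fold change was -0.43 (SE 0.20, adjusted p = 0.133), and with the GC trend removed it was -0.34 (SE 0.49, adjusted p = 0.684). The SD of Cdkn1c among the WDR11OE tumors was 0.94 on the log2 scale, larger than in 92.3% of 14807 genes whose average log2 CPM exceeded 0 and whose median SD was 0.17. Among the controls its SD was 0.16, beside a median of 0.19.

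**Figure D1:**
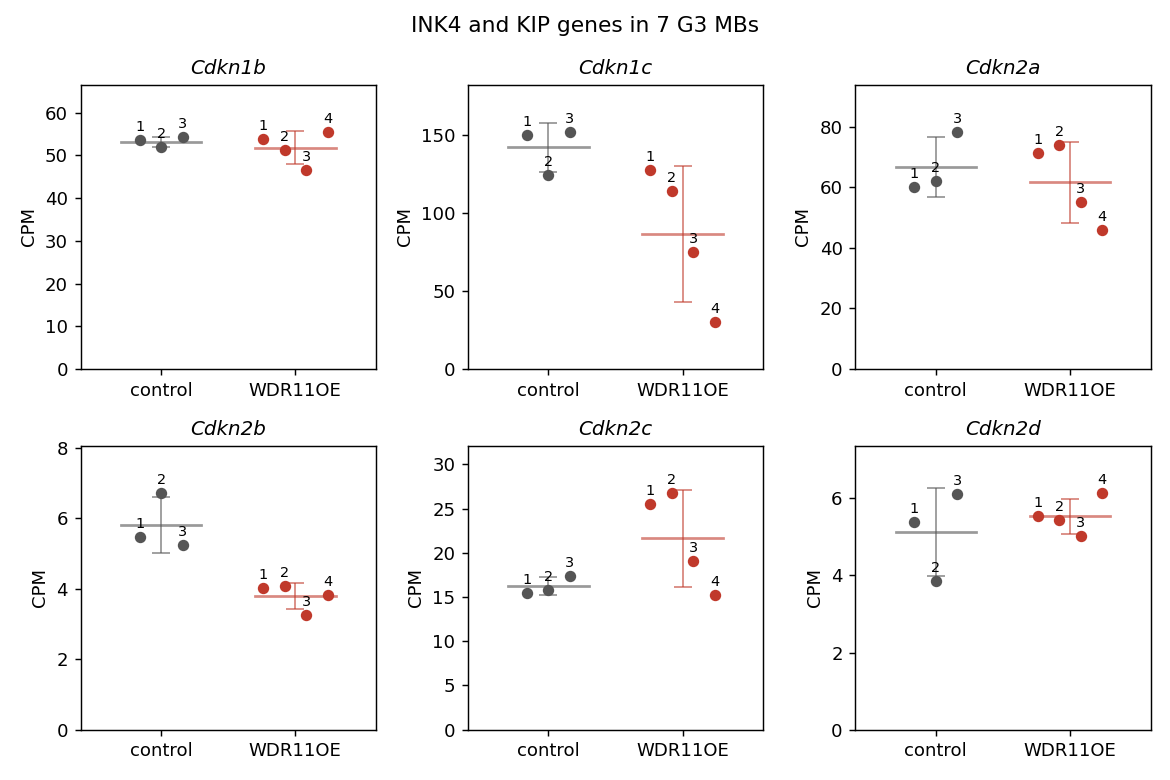
Level of each of the 6 inhibitors in CPM (y axis, from 0, a scale per panel) in the controls (gray) and the WDR11OE tumors (red). Points are tumors with their replicate number, and lines and bars are the mean and SD over 3 or 4 tumors. Cdkn2b alone has no overlap between the groups, and Cdkn1c spreads from 30.2 to 127.5 CPM among the WDR11OE tumors.

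Within the WDR11OE group the tumors with less Cdkn1c had higher sums of the neuron, astrocyte and microglia markers. The sums of the oligodendrocyte, endothelial, fibroblast and pericyte, skeletal muscle, red blood cell and granule neuron lineage lists did not have that order. The neuron marker sum was 12.5, 28.2, 209 and 684 CPM in replicates 1 to 4, and the astrocyte sum was 159, 182, 375 and 696 CPM, the opposite order to Cdkn1c. The sum of 6 microglia and macrophage markers had this order too, at 64.2, 83.5, 105.5 and 150.7 CPM, and was 115.4, 128.3 and 83.1 CPM in the controls. The oligodendrocyte sum did not have it, at 149.5, 86.2, 118.9 and 312.9 CPM in WDR11OE replicates 1 to 4. Of the astrocyte markers, Gja1 stayed at 112.2 to 124.6 CPM in the WDR11OE tumors. The neuron and astrocyte sums of the controls were 441, 147 and 69.0 CPM for neurons and 573, 544 and 376 CPM for astrocytes, while Cdkn1c stayed between 124.3 and 152.0 CPM. Control replicate 1 thus had more of the neuron, astrocyte and microglia markers than WDR11OE replicate 3 and also more Cdkn1c, at 150.5 CPM beside 75.0 CPM. The part of these cells in the level of Cdkn1c was not tested.

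**Figure D2:**
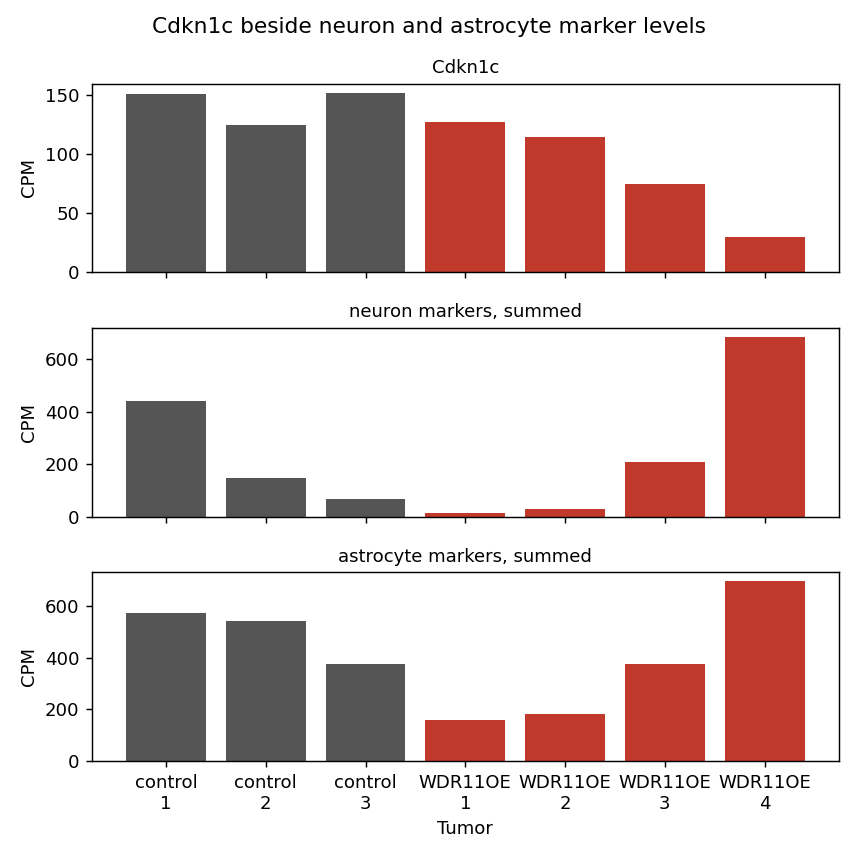
Cdkn1c (top), the sum of 8 neuron markers (middle) and the sum of 5 astrocyte markers (bottom) in each tumor, in CPM on axes from 0, with controls in gray and WDR11OE tumors in red. WDR11OE replicate 4 has the lowest Cdkn1c level, at 30.2 CPM, and the highest sum of both marker sets, at 684 and 696 CPM.

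Cdkn1b (ENSMUSG00000003031, chr6:134870419-134875531) encodes p27Kip1, whose amount is known to be set largely by degradation of the protein. Its RNA was at 53.5, 51.9 and 54.3 CPM in the controls and at 53.9, 51.3, 46.6 and 55.4 CPM in the WDR11OE tumors, and the lowest and the highest tumor were both WDR11OE. The log2 fold change was -0.04 (SE 0.07, 95% confidence interval -0.21 to 0.14, adjusted p = 0.733 in edgeR's test), an interval that spans less on either side than that of any other inhibitor here. The exact permutation p was 0.686. With the GC trend removed the fold change was -0.26 (SE 0.14, adjusted p = 0.235 in edgeR's test).

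The remaining KIP gene, Cdkn1a, encodes p21Cip1 and is a well-known target of p53, which this model lacks. It was at 11.9, 16.02 and 9.62 CPM in the controls and at 7.70, 9.03, 8.44 and 5.86 CPM in the WDR11OE tumors, with no overlap. The log2 fold change was -0.69 (SE 0.22, adjusted p = 0.0483 in edgeR's test), close to the threshold. The call held in 4 of 15 alternatives, which were limma with voom, DESeq2, library size scaling and the fit without control replicate 3. It was lost in the other 11, among them the fit with the GC trend removed (-0.54, SE 0.26, adjusted p = 0.202).

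**Figure D3:**
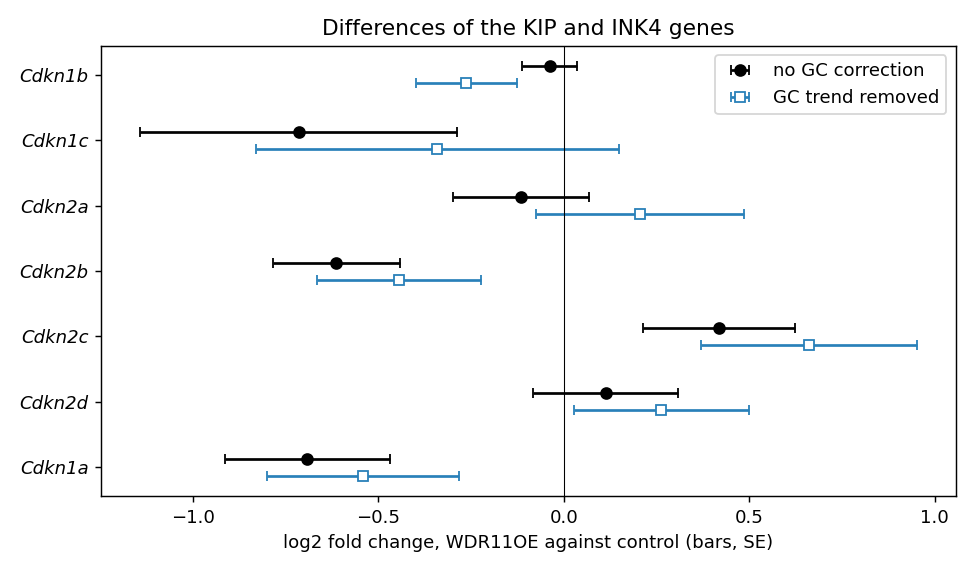
Log2 fold change of WDR11OE against control (x axis, bars are SE) for the 6 inhibitors and Cdkn1a, as fitted by edgeR (black circles) and with the trend of counts with exon GC content removed (open blue squares). Cdkn2b moves from -0.61 to -0.44 and Cdkn2a from -0.12 to 0.21.

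To compare the inhibitors with each other, CPM was divided by the exon length of each gene in kilobases. In the controls Cdkn1c (73.7 ± 8.05) and Cdkn2a (57.0 ± 8.50) were the highest, followed by Cdkn1b (11.7 ± 0.268), Cdkn2c (6.03 ± 0.381), Cdkn2b (4.17 ± 0.572) and Cdkn2d (4.03 ± 0.899, all SD, n = 3). The ranges of Cdkn1c and Cdkn2a overlapped between tumors, as did those of Cdkn2b and Cdkn2d. In the WDR11OE tumors the means were 44.9 ± 22.7 for Cdkn1c, 52.6 ± 11.4 for Cdkn2a, 11.4 ± 0.849 for Cdkn1b, 8.06 ± 2.04 for Cdkn2c, 4.35 ± 0.361 for Cdkn2d and 2.73 ± 0.267 for Cdkn2b (SD, n = 4). Cdkn2d would be placed above Cdkn2b in every tumor but control replicate 2 by its own counts, and its true place is uncertain because of its copy.

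**Figure D4:**
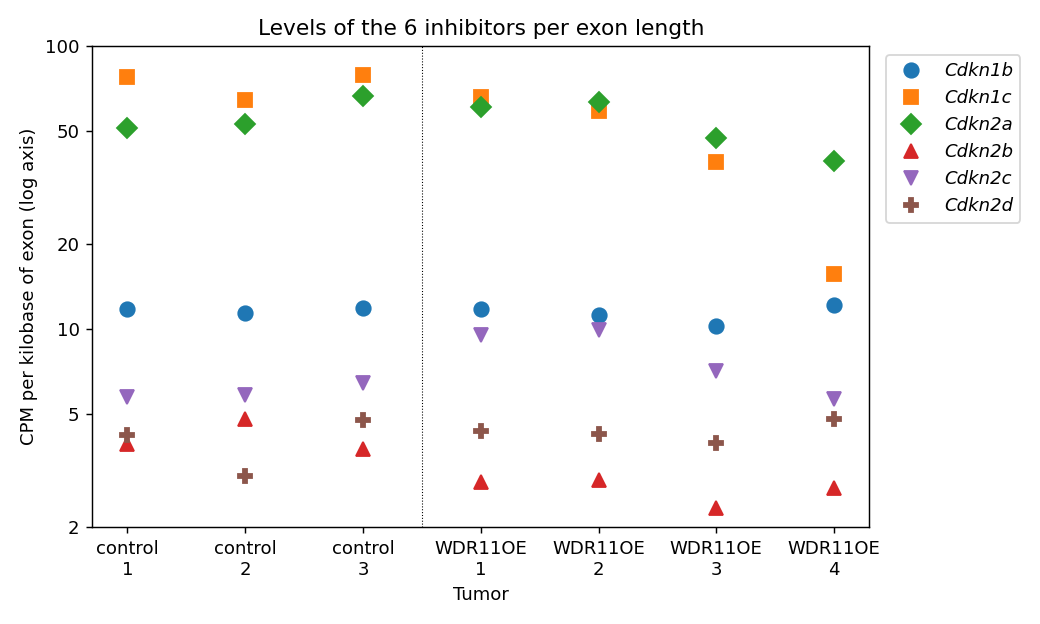
Level of the 6 inhibitors in CPM per kilobase of exon (y axis, log axis) in each of the 7 tumors (x axis), with a dotted line between the groups and a marker for each gene. Cdkn1c and Cdkn2a are on top in every tumor, and Cdkn1c is above Cdkn2a in the 3 controls and WDR11OE replicate 1 and below it in replicates 2, 3 and 4, an order that turns in control replicates 2 and 3 and in WDR11OE replicate 1 with the length of the longest transcript.

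Within each tumor, the top 2 places were held by Cdkn1c and Cdkn2a. The level of Cdkn1c per length was 1.52, 1.21 and 1.18 times that of Cdkn2a in the controls and 1.09, 0.933, 0.824 and 0.398 times in WDR11OE replicates 1 to 4. Which gene came first depended on the exon length used. With the length of the longest transcript the ratios were 1.21, 0.963 and 0.935 in the controls and 0.862, 0.741, 0.655 and 0.316 in the WDR11OE tumors, so that Cdkn1c was above Cdkn2a in control replicate 1 only. The share of Cdkn1c in the sum of all 6 inhibitors was 50.3%, 45.1% and 45.6% in the controls and 42.5%, 39.2%, 35.4% and 19.5% in the WDR11OE tumors. The ratio and the share were chosen after seeing the values and were not tested.

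The summed level of the 6 inhibitors per length was 154.8, 142.6 and 172.4 in the controls. In WDR11OE replicates 1 and 2 it was inside that range, at 155.4 and 150.8, and in replicates 3 and 4 it was below, at 109.6 and 80.3. The 4 INK4 genes alone summed to 65.2, 66.8 and 81.8 in the controls and to 77.6, 80.5, 60.6 and 52.5 in the WDR11OE tumors, so that the groups overlapped. Their targets Cdk4 and Cdk6 together had 1.81, 1.80 and 1.83 times the INK4 sum in the controls and 2.44, 2.28, 2.63 and 2.83 times in the WDR11OE tumors. This ratio was higher in every WDR11OE tumor than in any control and was likewise chosen after seeing the values. In WDR11OE replicate 4 the sum of Cdk4 and Cdk6 was 148.8, inside the control range of 118.1 to 149.4. The INK4 sum of that tumor was the lowest. The ratio compares RNA levels per length and not the amounts of protein. Most of the INK4 sum was Cdkn2a, whose count adds the p19Arf transcript, and the sum also holds Cdkn2c, which the model lacks. With the GC trend removed, the rise of Cdk4 was 0.54 (SE 0.22) and did not pass edgeR's test (adjusted p = 0.146). The fold change of Cdkn2a turned to 0.21 in that setting. The ratio is therefore no measure of active kinase against inhibitor.

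The kinases, cyclins and RB proteins that the inhibitors act on, or through, were read from a list of 12 genes. Of these, 1 was lower and 2 were higher at an adjusted p under 0.05, and 9 did not pass, beside 15.8% lower and 18.1% higher over all genes tested. Ccnd2, which encodes cyclin D2, fell by 1.41 on the log2 scale (SE 0.17, adjusted p = 0.00151), and its level per length was 73.8, 50.1 and 56.0 in the controls against 21.6, 19.6, 28.3 and 20.8 in the WDR11OE tumors. Ccne2, a cyclin E that activates CDK2, rose from 34.7 ± 0.386 to 62.2 ± 6.597 CPM (log2 fold change 0.84, adjusted p = 0.00119), and Cdk4 rose from 380.1 ± 63.2 to 518.8 ± 60.8 CPM (0.45, adjusted p = 0.0463, SD, n = 3 and 4, all in edgeR's test). Neither rise passed edgeR's test with the GC trend removed, when the call of Ccnd2 held (-1.42, adjusted p = 0.00466). Ccne2 then fell to 0.29 (SE 0.19, adjusted p = 0.339), while Cdk4 was at 0.54 with a wider SE of 0.22 (adjusted p = 0.146).

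Regulators of INK4 and KIP genes or proteins were read from a list of 21 genes, of which 20 had a row in the table and were tested. The 20 also held Mtap, which is a neighbour of Cdkn2a and not a regulator, and which did not pass the test. At an adjusted p under 0.05, 4 were lower and 6 were higher, where 15.8% and 18.1% of all genes were. The lower genes included Kdm6b, a demethylase of histone H3 that counters Polycomb repression (117.6 ± 14.1 against 34.2 ± 9.26 CPM, log2 fold change -1.78, adjusted p = 0.00125). They also included Foxo1 (-1.17, adjusted p = 0.00408) and Foxo3 (-0.51, adjusted p = 0.00151), transcription factors known to activate Cdkn1b, and Ets2 (-0.41, adjusted p = 0.0339), known to activate the p16Ink4a transcript.

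Among the 6 higher regulators, Cul1 (log2 fold change 0.59, adjusted p = 0.00157), Skp1a (0.61, adjusted p = 0.00333) and Rbx1 (0.50, adjusted p = 0.0188) encode the core of the ubiquitin ligase that marks p27Kip1 for degradation. Skp2 and Cks1b, which bring p27Kip1 to that ligase, did not pass the test in edgeR. Cops5, a subunit of the COP9 signalosome that binds p27Kip1, was higher by 0.47 (adjusted p = 0.0157). Bmi1 (0.23, adjusted p = 0.0213) and Eed (0.38, adjusted p = 0.0117) belong to the Polycomb complexes that repress the Cdkn2a and Cdkn2b locus. The other Polycomb genes of the list, Ezh2 (-0.04, adjusted p = 0.709), Suz12 (0.08, adjusted p = 0.504) and Cbx7 (0.55, adjusted p = 0.343), did not pass edgeR's test. With the GC trend removed, Kdm6b (-1.52, adjusted p = 0.00317) and Foxo1 (-1.12, adjusted p = 0.0108) passed edgeR's test and no regulator passed as higher. Bmi1 then turned to -0.03 (SE 0.14). Cul1 (0.45, SE 0.16), Skp1a (0.48, SE 0.18), Rbx1 (0.43, SE 0.21), Cops5 (0.36, SE 0.17) and Eed (0.32, SE 0.17) stayed positive.

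Genes that E2F factors activate, or that mark dividing cells, made a list of 18, of which 2 were lower and 7 were higher at an adjusted p under 0.05, against 15.8% and 18.1% of all genes. The higher genes were Pcna, Top2a, Cdk1, Ccnb1, Bub1, Cdc6 and Tyms, with log2 fold changes from 0.26 (Tyms) to 0.79 (Pcna). The lower genes were Plk1 (-0.72, adjusted p = 0.0199) and E2f1 (-0.35, adjusted p = 0.0277). Mki67, a marker of dividing cells, was at 818.2 ± 116.5 CPM in the controls and 665.5 ± 40.6 CPM in the WDR11OE tumors and did not pass (-0.30, adjusted p = 0.0949 in edgeR's test with Benjamini-Hochberg adjustment). None of the 18 passed with the GC trend removed. The 7 higher genes then stayed positive, from 0.17 (Tyms) and 0.19 (Bub1) to 0.59 (Cdk1). Of the lower genes, Plk1 was at -0.56 and E2f1 at -0.08 in that setting. The list median was 0.13, beside 0.08 for all genes tested.

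**Figure D5:**
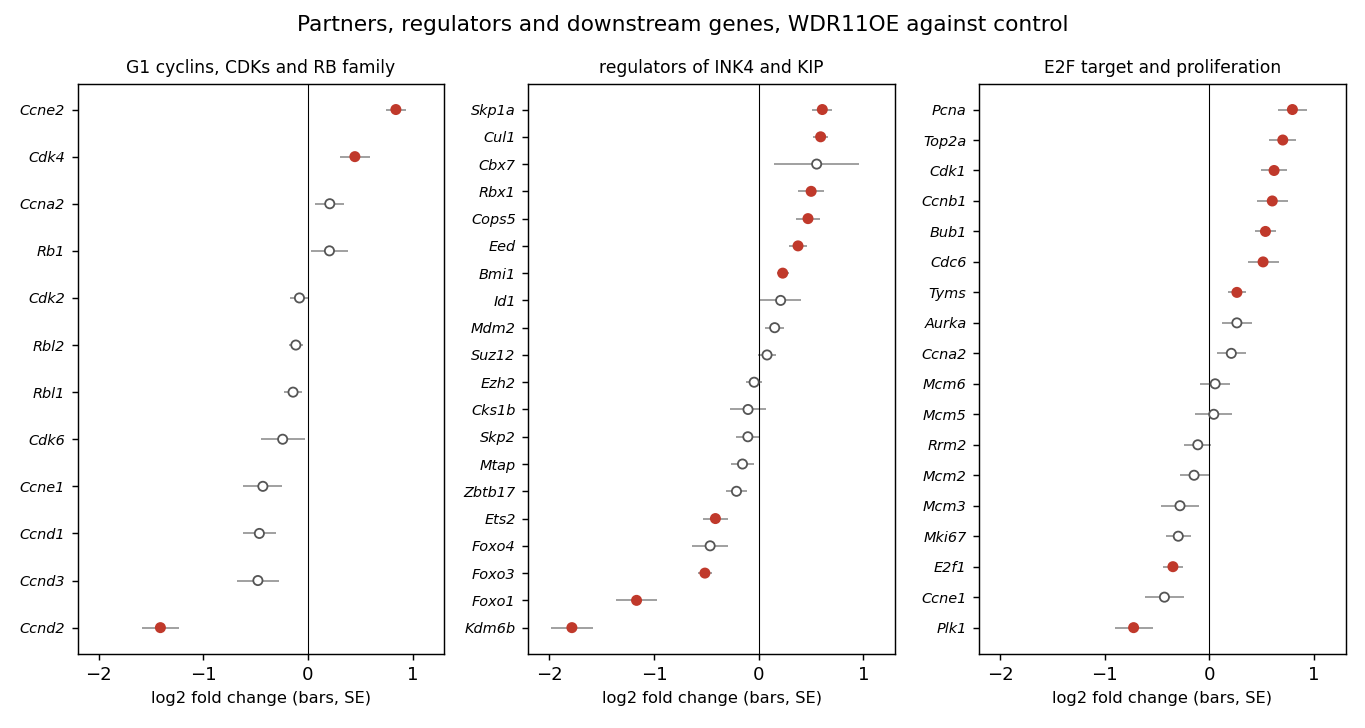
Log2 fold change of WDR11OE against control (x axis, bars are SE) for 12 partners and targets of the inhibitors, the 20 genes of the regulator list (with the neighbour Mtap) and 18 genes of E2F response and proliferation. Filled red points passed an adjusted p under 0.05 and open points did not. The filled points lie on both sides of 0 in each list, with 1 lower and 2 higher, 4 lower and 6 higher, and 2 lower and 7 higher.

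The genes next to the inhibitors on the chromosome were read as well. Faf1, which follows Cdkn2c, was at 63.0 ± 3.48 CPM in the controls and 91.9 ± 10.1 CPM in the WDR11OE tumors (log2 fold change 0.54, SE 0.10, adjusted p = 0.00564), and Gpr19, which precedes Cdkn1b, was at 3.30 ± 0.561 and 5.81 ± 0.916 CPM (0.81, SE 0.20, adjusted p = 0.0202 in edgeR's test, SD, n = 3 and 4). Both were higher, as were 18.1% of all genes tested. Mtap, on the other side of Cdkn2a from Cdkn2b, had a log2 fold change of -0.15 (SE 0.11, adjusted p = 0.330). Apold1, Kcnq1, Dmrta1 and Kri1 did not pass the test, and Slc22a18, 4930522H14Rik and Ap1m2 had too few counts to enter it. Of the 23.5% of genes whose WDR11OE tumors all lay above the controls, none was an inhibitor.

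The levels of the inhibitors across the 7 tumors did not follow one another closely. Over log2 CPM, the pair most alike was Cdkn1c and Cdkn2a, with a Pearson r of 0.83, and the least alike was Cdkn2b and Cdkn2d, with -0.50. The tumors share a line, and the points share library depth and base composition, so these are descriptions. Of the 14807 genes above the limit on expression, the one most like Cdkn1c was Igfbp3, which encodes a binding protein of insulin-like growth factors (r = 0.997), followed by Gpr153. Those most like Cdkn2b were Mon1a (r = 0.988), Atp11a and Slc38a7, and those most like Cdkn2a were Afg3l2 (r = 0.984), Eif3h and Exosc4.

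Cdkn2c was most like Tpi1, which encodes a glycolytic enzyme (r = 0.989), then Gm10132 and Gm10335. Cdkn1b was most like Gm11868 (r = 0.947), Mon2 and Scyl2, and Cdkn2d was most like Nsmce2 (r = 0.972), SNORA54 and Nol7. No inhibitor was among the 3 genes most like another inhibitor.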

How the data were processed

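The authors mapped the reads of the 7 tumors to mouse NCBIM37.67 (mm9) by the StrongArm pipeline, used HT-seq and GENCODE gene models to count them, and deposited the raw counts per gene, not normalized. The submitters' processing notes name CASAVA 1.7, STAR, BWA and HTSeq, the last 3 without a version, and the strand setting is not given in the sources used here, and the labels name a TruSeq RNA kit where the methods describe stranded total RNA. From these counts, genes were filtered with filterByExpr, scaled by TMM and compared with the two-sided quasi-likelihood test of edgeR 4.0.16 in R 4.3.3, with Benjamini-Hochberg adjustment over 17389 genes and the condition as the only term. Values per tumor are CPM, or log2 CPM with a prior count of 2. The script was tested on simulated data. Coordinates, exon length and GC content come from GENCODE M1 on NCBIM37, which matched 33606 of 34592 genes (97.2%). No pair of tumors of 1 group agreed within sampling noise (lowest chi-square per degree of freedom 21.1).

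Alternatives were limma 3.58.1 with voom (the study's method), DESeq2 1.42.0, other scalings and filters, removal of the GC trend by loess in each tumor, summing WDR11OE replicates 1 and 2 (whose titles share a number), leaving out each tumor and, for the levels, the length of the longest transcript. The members and lists were chosen with earlier results of these data known. Genes named are the members, Cdkn1a, Trp53 and Wdr11, all list genes that passed, the nearest protein-coding neighbours, and the 3 genes most correlated with each member, of which 1 is not reported here. Skp2, Cks1b, Mki67, Mb, Myc, Gja1, Cdh5, Pdgfrb, Atoh1 and Gm4694 were named after their values were seen. Counting error covers sampling of reads only, since no molecular identifiers were used.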

Additional observations from a re-analysis of the deposited data

Results flagged for a closer look

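In 59 genes (the inhibitors, their lists, and Cdkn1a, Trp53, Myc, mouse Wdr11 and human WDR11), the WDR11OE tumors were searched for a tumor far from the other 3, and 3 genes had one, about as many as chance gives at a rate of 1 in 20. Rb1, which encodes RB, was at 32.7 CPM in WDR11OE replicate 4 and at 20.5 to 22.3 CPM in the other WDR11OE tumors. Cbx7, a Polycomb subunit that represses the Cdkn2a locus, was at 13.6 CPM in the same tumor and at 5.04 to 5.45 CPM in the others. Suz12, a Polycomb subunit, was at 134.3 CPM in WDR11OE replicate 3 and at 117.0 to 119.1 CPM in the others. None of the 6 inhibitors had a WDR11OE tumor that far from the other 3, and the controls were not searched.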

How the results depend on the processing

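No paired analysis was possible because the labels give the groups no shared replicate numbers. Cdkn1c kept its direction and failed the test in all 15 alternatives run for it, with -0.34 with the GC trend removed and -0.97 to -0.43 when 1 tumor was left out. Cdkn2b was lower in all 15, with an adjusted p from 0.00258 to 0.218. It failed with the GC trend removed (-0.44) and with WDR11OE replicates 1 and 2 summed (-0.69), and leaving out 1 tumor gave -0.70 to -0.50. Leaving out 1 tumor gave 0.26 to 0.56 for Cdkn2c, -0.25 to 0.0115 for Cdkn2a, -0.10 to 0.01 for Cdkn1b (-0.26 with the GC trend removed) and -0.0561 to 0.26 for Cdkn2d. The sign turned without control replicate 3 (0.0115) or WDR11OE replicate 4 (0.0018) and with the GC trend removed (0.21) for Cdkn2a, without control replicate 2 (-0.0561) for Cdkn2d, and without WDR11OE replicate 3 (0.0084) for Cdkn1b. The number of inhibitors called lower was 0 with the GC trend removed and with the 2 replicates summed, and leaving out 1 tumor gave 0 to 1 lower and 0 to 1 higher. Of the partners and targets, DESeq2 called 3 lower and library size scaling 2, no filter, a filter of 1 CPM and the summed replicates each called 1 higher, the GC correction 0 higher, and leaving out 1 tumor gave 1 to 2 lower and 1 to 2 higher. Of the regulators, no filter called 3 higher, the summed replicates 2, and the GC correction 2 lower and 0 higher, and leaving out 1 tumor gave 2 to 6 higher. Of the E2F and proliferation genes, the summed replicates called 0 lower and 3 higher and the GC correction 0 and 0, and leaving out 1 tumor gave 0 to 2 lower and 3 to 8 higher. With the length of the longest transcript, the control level per length was 71.8 for Cdkn2a and 6.56 for Cdkn2c, and Cdkn1c was no longer above Cdkn2a in control replicates 2 and 3 and WDR11OE replicate 1. The causes were not tested. Over all genes the GC correction called 1388 lower and 777 higher, against 2744 and 3150.

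With 3 and 4 tumors, the exact permutation test cannot go below 0.0286, and Cdkn2b and Cdkn2d, at 106 to 560 counts, have the largest counting error of the inhibitors.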
